A study of Mus musculus with 217 samples.

Results

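The clustered protocadherins are homophilic cell adhesion proteins of neurons, encoded in the alpha, beta and gamma clusters that lie one after the other on a single chromosome arm. Each alpha and gamma gene begins with its own promoter and a large first exon that encodes the extracellular and transmembrane parts, and its transcript is spliced to small exons shared by the whole cluster, while each beta gene is complete in its own large exon. A single neuron switches on a few of these promoters, largely by chance, with the help of the looping factors CTCF and cohesin, and the resulting combination lets a cell tell its own branches from those of its neighbours. The C-type genes at the ends of the alpha and gamma clusters are controlled differently from the others and are used by broad classes of neurons.

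Members were the protein-coding genes of both count tables whose symbol begins with Pcdha, Pcdhb, Pcdhga, Pcdhgb or Pcdhgc followed by a number, together with Pcdhac1 and Pcdhac2. The rule found 57 of 54532 genes, 14 in the alpha cluster, 22 in the beta cluster and 21 in the gamma cluster, of which 5 were C-type. The rule uses no measured value. Pcdhgb8 was left out because its annotation is that of a polymorphic pseudogene. On mouse build GRCm38 all members are on the plus strand of chromosome 18, with the alpha cluster running from 36930184 (Pcdha1) to 37187661, the beta cluster from 37264938 (Pcdhb1) to 37524479 (the end of Pcdhb22), and the gamma cluster from 37661793 (Pcdhga1) to 37841873. Every member had at least 1 count in each tissue and age and entered each test.

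The study asked in LacQ140 mice, an inducible model of Huntington's disease, how lowering of mutant huntingtin (mHtt) at different ages changes the transcriptome. LacQ140 mice are Hdh(LacO-140Q/+):β-actin-LacIR tg, so they carry 1 knock-in Htt allele with an expanded CAG repeat and Lac operators, and a Lac repressor driven by the ubiquitous beta-actin promoter. WT littermates are Hdh(LacO-+/+):β-actin-LacIR tg and carry the same repressor. IPTG, which inactivates the repressor, keeps the mutant allele on. The LacQ140 arm received IPTG from embryonic day 5 (E5) until collection, LacQ140_A never received it, and LacQ140_2M and LacQ140_8M received it from E5 and lost it at 2 or 8 months. WT mice were studied without and with IPTG (WT + IPTG). All were labelled C57BL/6. RNA-Seq was available for 217 libraries of 110 mice, of which 107 were striatal and 110 cortical, and 100 came from 6-month and 117 from 12-month mice. LacQ140_8M was collected at 12 months only. Each group held 10 libraries, 5 of each sex, except that the 12-month striatum groups WT, LacQ140 and LacQ140_8M held 9, with 4 females. The 2 ages were deposited as separate tables and labelled as separate batches, so age and batch cannot be told apart and no test was made between ages.

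Library totals ran from 33292057 to 68038831 counts, and all 217 libraries matched their sex label. The slope of log2 CPM, the counts scaled to a common library size, on log2 transcript length was between 0.17 and 0.59 in the 6-month libraries and the 12-month striatum, but between -0.30 and 0.13 in the 12-month cortex, so long transcripts were under-represented there. Htt counts, which do not separate the 2 alleles, were 111 ± 11.5 CPM in WT + IPTG and 102 ± 10.9 in LacQ140 striatum at 6 months (SD, n = 10 each), and 87.7 ± 8.32 in LacQ140_A. At 12 months they were 146 ± 11.2 in WT + IPTG (n = 10), 111 ± 10.9 in LacQ140 (n = 9) and 93.4 ± 15.9 in LacQ140_A (n = 10). Against LacQ140 the log2 difference in Htt was -0.21 (adjusted p = 0.075) at 6 months and -0.25 (adjusted p = 0.049) at 12 months in LacQ140_A, -0.20 (adjusted p = 0.15) and -0.15 (adjusted p = 0.56) in LacQ140_2M, and -0.00 (adjusted p = 1) in LacQ140_8M. In cortex it was -0.20 (adjusted p = 0.42) and -0.49 (adjusted p = 0.19) in LacQ140_A, -0.29 (adjusted p = 0.29) and -0.43 (adjusted p = 0.49) in LacQ140_2M, and -0.41 (adjusted p = 1) in LacQ140_8M. Total Htt was called in none of these 10 tests, since the difference of LacQ140_A in 12-month striatum was under the 20% bound used below. In LacQ140 against WT + IPTG striatum the difference was -0.12 (adjusted p = 0.28) at 6 and -0.40 (adjusted p = 9e-06) at 12 months. In cortex it was -0.36 (adjusted p = 0.0043) and -0.14 (adjusted p = 0.79). LacQ140_A against WT striatum had -0.40 (adjusted p = 0.00023) and -0.52 (adjusted p = 6.5e-08). LacQ140_2M against WT + IPTG striatum had -0.32 (adjusted p = 0.0044) and -0.54 (adjusted p = 5.8e-09). LacQ140_8M had -0.40 (adjusted p = 1.1e-05).

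Levels of the members differed widely within each cluster. Per kb of exon, the most abundant alpha gene in 6-month WT striatum was the C-type gene Pcdhac2, which is needed for the even spread of serotonergic axons, at 6.26 ± 0.663 CPM per kb (SD, n = 10) against a cluster median of 0.585. It held 43% of the cluster's counts. The least abundant was Pcdha8 at 0.253 ± 0.0905 CPM per kb. In the beta cluster Pcdhb9 led with 4.29 ± 0.296 CPM per kb against a median of 1.04, and Pcdhb1, the first gene of the cluster, was lowest with 0.119 ± 0.0654. The gamma cluster was the most abundant, with a median of 4.64 CPM per kb. Its first gene, Pcdhga1, was the lowest at 1.41 ± 0.324. Its highest was the C-type gene Pcdhgc4, which is required for the survival of cortical interneurons, at 26.6 ± 5.32. With length taken as the longest transcript, Pcdhgc3 came before Pcdhgc4 in both tissues at 6 months. The same leaders held in 6-month WT cortex, where Pcdhac2 was at 9.25 ± 1.67, Pcdhb9 at 4.38 ± 0.722 and Pcdhgc4 at 25.1 ± 4.74 CPM per kb (n = 10).

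**Figure D1:**
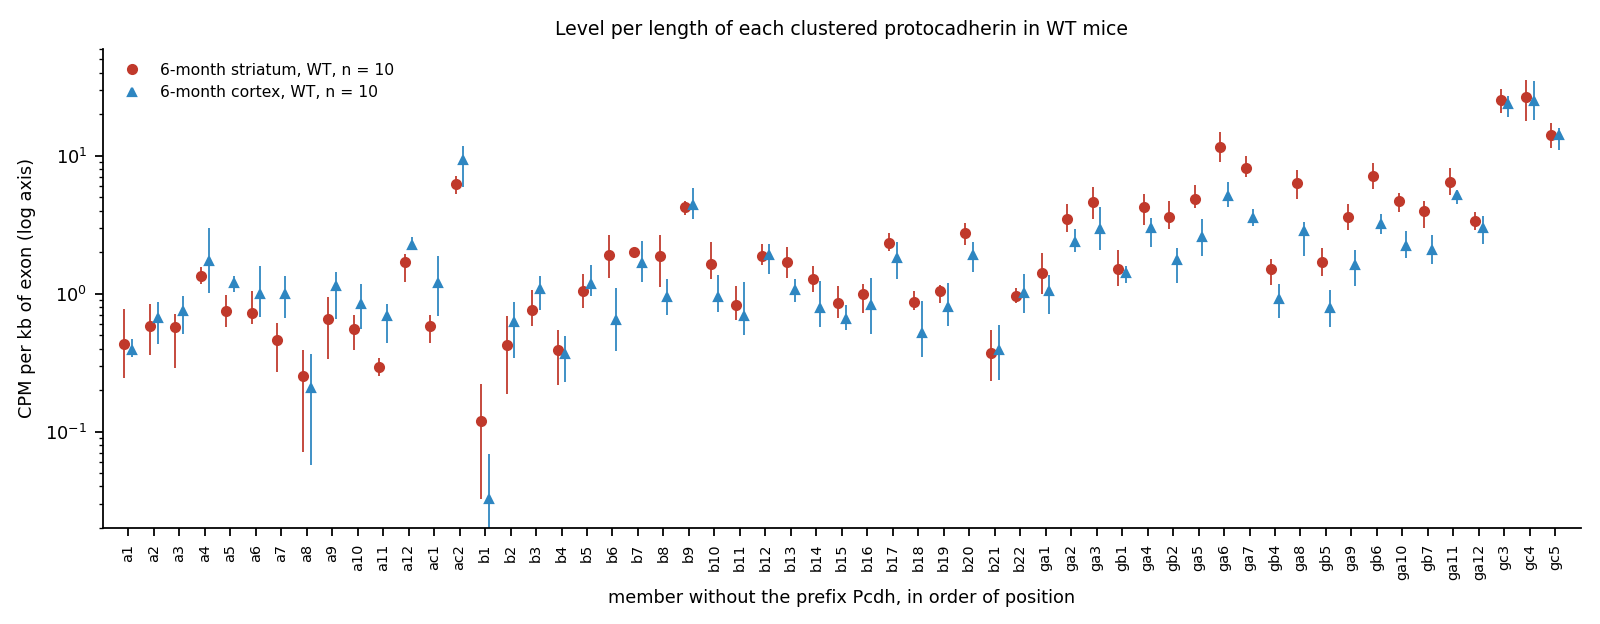
Level per length of each of the 57 members in 6-month WT striatum (circles) and cortex (triangles), in order of position (x axis, symbols without the prefix Pcdh); the y axis is CPM per kb of exon on a log scale. Points are means of 10 libraries and lines run from the lowest to the highest library; Pcdhb1 in cortex had a lowest value of 0, below the axis. The C-type genes ac2, gc3, gc4 and gc5 stand above the rest of their clusters in both tissues.

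Reads of neighbouring members are hard to assign. Of all stretches of 100 bases, the read length, in the annotated transcripts, 47.7% to 96.5% of those of an alpha gene (median 55.8%) and 17.4% to 64% of those of a gamma gene (median 44.1%) also occur in another gene. The shared exons are the main reason. For Pcdha4, which has the highest share, 43.9% occur in the gene model Gm42416. In the beta cluster the range was 0% to 7.73% (median 0.207%). The counts were estimates: 99.9% of the non-zero values of alpha genes and 99.7% of those of gamma genes were not whole numbers, against 25.5% in the beta cluster and 26.8% over all genes. Values of single alpha and gamma genes, Pcdha4 above all (96.5%), are therefore uncertain, while for 15 of the 22 beta genes at most 32.3% of the non-zero values were not whole. The other 7, Pcdhb6, Pcdhb7, Pcdhb9, Pcdhb10, Pcdhb12, Pcdhb21 and Pcdhb22, had 59.4% to 91.7%, so part of their counts was shared out between genes.

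In the striatum mHtt expression went with higher levels of many members, most of them in the beta cluster. LacQ140 mice were compared with WT + IPTG mice, so both arms were on IPTG. A member was called when its adjusted p was under 0.05 in edgeR's quasi-likelihood test, adjusted over all genes, and it differed by at least 20%. At 6 months 22 of 57 members were higher and 1, Pcdhb8, was lower. Over all 35808 genes tested, 3.97% were called higher and 3.96% lower. The members' median log2 fold change was 0.24, that of all genes was 0.00, and 51 members were above 0. At 12 months 22 members were higher and 3, Pcdhb8, Pcdhac1 and Pcdhga6, were lower, with 4.58% of 35386 genes called higher and 4.86% lower. The median was then 0.21 against 0.00 for all genes, and 41 members were above 0. Among the more abundant genes kept by edgeR's filterByExpr, 7.82% were called higher at 6 months and 9.00% at 12 months. In bulk tissue, more cells using a promoter and more RNA per cell cannot be told apart.

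**Figure D2:**
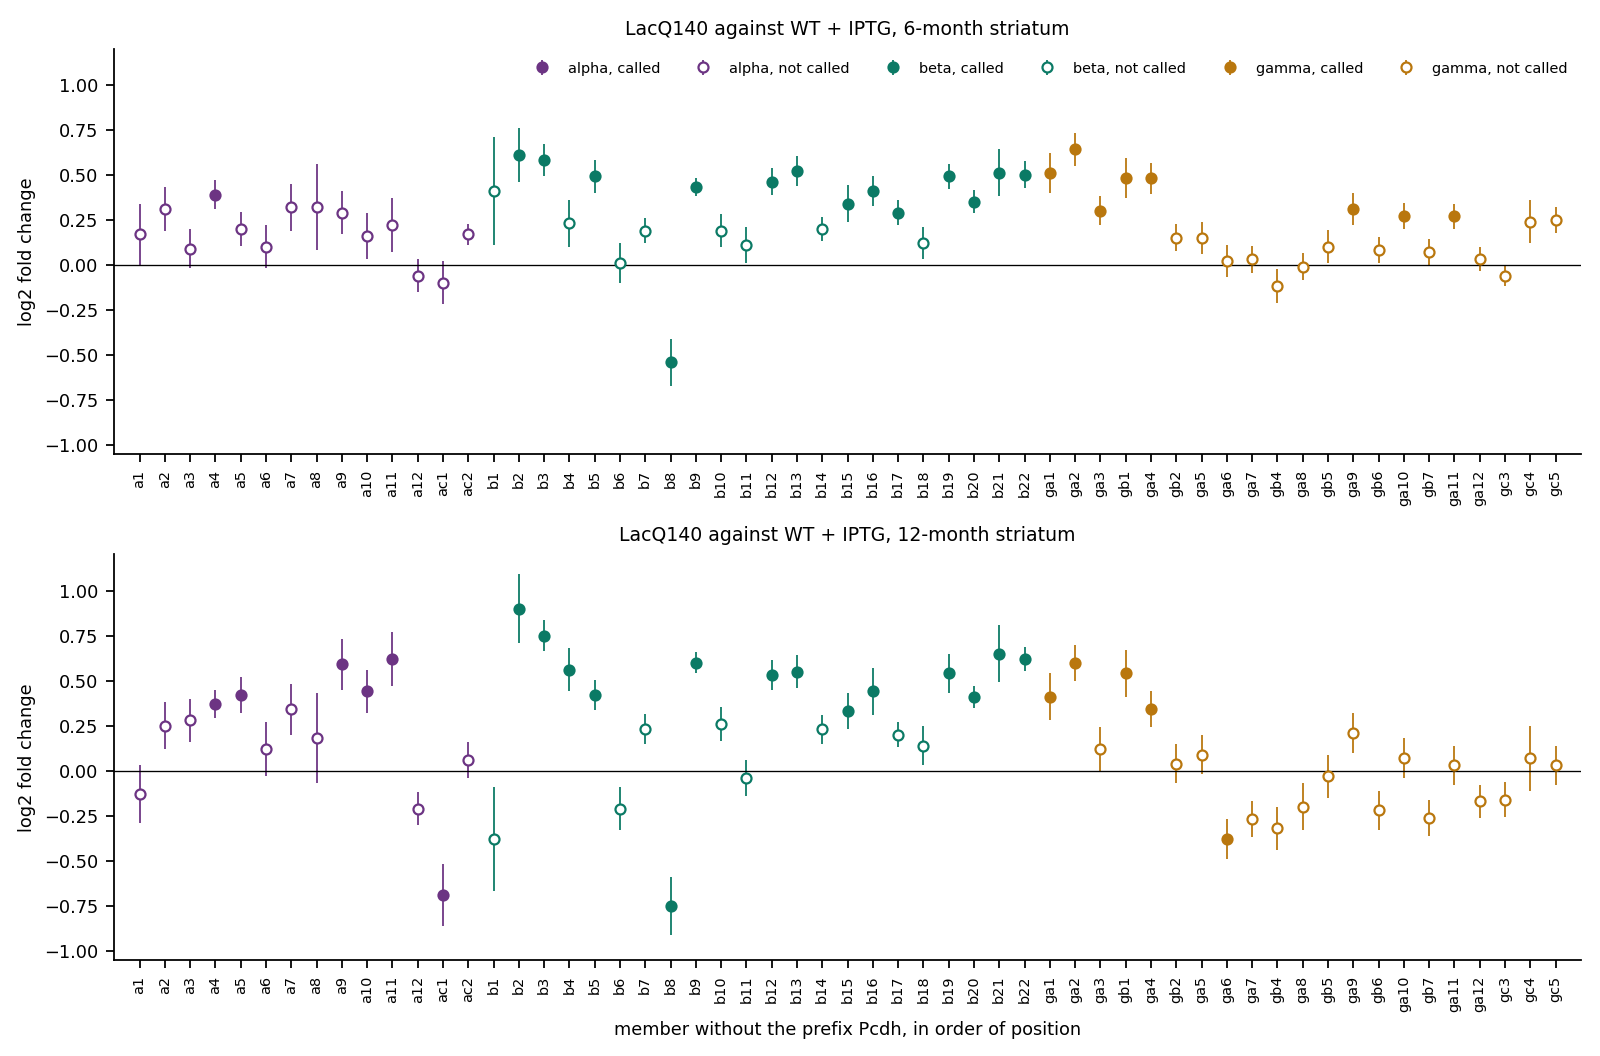
Log2 fold change of each member in LacQ140 against WT + IPTG striatum (y axis) by position (x axis, symbols without the prefix Pcdh), at 6 months (top) and 12 months (bottom); bars are standard errors from edgeR and filled points are called members. Called beta genes are spread over the whole cluster, called gamma genes are mainly the first ones, and Pcdhb8 is the lowest point at both ages.

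The beta cluster held 13 of the 22 higher members at each age. The median beta gene had a log2 fold change of 0.38 at the younger age and 0.42 at the older. The summed level of its 22 genes was between 111 and 138 CPM in the WT + IPTG libraries at 6 months (124 ± 8.81, n = 10) and between 143 and 166 CPM in LacQ140 (153 ± 7.38, n = 10), a ratio of 1.23. All 10 LacQ140 libraries were above every WT + IPTG library. At 12 months the sums were 151 ± 17.2 CPM in WT + IPTG (120.1 to 175, n = 10) and 187 ± 12.6 in LacQ140 (165 to 206, n = 9), a ratio of 1.24, and 7 of the 9 LacQ140 libraries were above all of WT + IPTG. The sum of the alpha cluster had a ratio of 1.13 at 6 months and 1.11 at 12 months, with overlapping groups. That of the gamma cluster was 776 ± 79.2 CPM in WT + IPTG and 867 ± 74.5 in LacQ140 at 6 months, and 1105 ± 59.1 and 1097 ± 57.4 at 12 months, so at 12 months the difference was smaller than the spread.

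**Figure D3:**
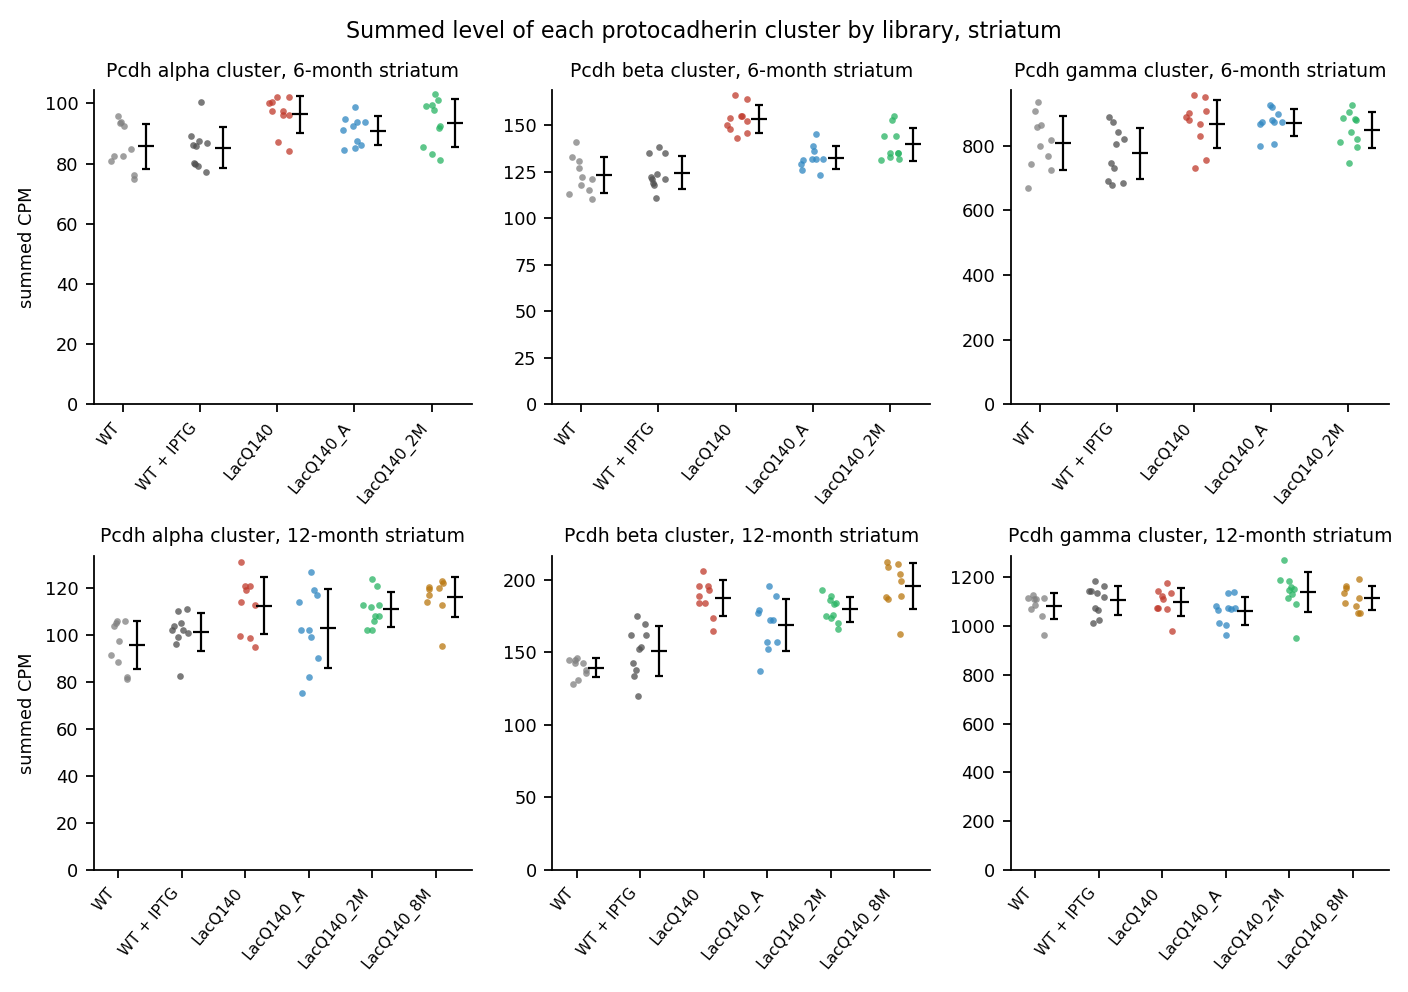
Summed CPM (y axis, from 0) of the alpha, beta and gamma clusters in each striatum library at 6 months (top) and 12 months (bottom), by arm (x axis). Points are libraries and the black bars are the mean and SD; in the beta cluster at 6 months the 10 LacQ140 libraries (143 to 166) all lie above the 10 WT + IPTG libraries (111 to 138).

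Pcdhb9, the most abundant beta gene and, like its neighbours, a homophilic adhesion protein with its own recognition specificity, had the smallest p at both ages. At 6 months it ran from 11.6 to 16.6 CPM in WT + IPTG (median 14) and from 17.2 to 20.1 in LacQ140 (median 18.9), or 0.43 ± 0.051 as a log2 fold change with its SE (adjusted p = 6.1e-09). At 12 months it ran from 11.7 to 15.6 CPM in WT + IPTG (median 14.1) and from 18.3 to 22.4 in LacQ140 (median 21.4), a log2 fold change of 0.60 ± 0.059 (adjusted p = 8.5e-13). The groups did not overlap at either age. Pcdhb22, the last gene of the beta cluster, ran from 5.47 to 8.12 CPM in WT + IPTG and from 7.99 to 11.4 in LacQ140 at 6 months (medians 6.53 and 8.82), with a log2 fold change of 0.50 ± 0.075 (adjusted p = 1.5e-06). At 12 months its WT + IPTG libraries lay between 6.97 and 9.67 CPM and its LacQ140 libraries between 10.6 and 14.9 (medians 8.59 and 13.1), with no overlap and a log2 fold change of 0.62 ± 0.066 (adjusted p = 1.1e-11). For Pcdhb9 and Pcdhb22, 67.3% of the non-zero values were not whole.

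Pcdhb3 shares no stretch of 100 bases with another gene and gave the same direction. It rose from 2.92 ± 0.373 to 4.35 ± 0.477 CPM at 6 months (n = 10 each, log2 fold change 0.58 ± 0.088, adjusted p = 2e-06), where the libraries of WT + IPTG (2.59 to 3.57, median 2.72) and LacQ140 (3.35 to 5.04, median 4.43) overlapped only at their edges. At 12 months WT + IPTG lay between 3.11 and 5.25 CPM (median 4.26) and LacQ140 between 5.53 and 7.65 (median 7.01), with no overlap and a log2 fold change of 0.75 ± 0.086 (adjusted p = 1.9e-10). Pcdhb13, likewise with no shared stretch, rose by a log2 fold change of 0.52 ± 0.082 at 6 months (adjusted p = 4e-06) and 0.55 ± 0.091 at 12 months (adjusted p = 3.8e-06). Pcdhb19 had medians of 7.03 CPM in WT + IPTG (6.24 to 7.76) and 9.98 in LacQ140 (7.47 to 11.3) at 6 months, a log2 fold change of 0.49 ± 0.069 (adjusted p = 3.6e-07). At 12 months its medians were 7.16 (4.44 to 7.96) and 9.7 (7.98 to 12.9), the groups just did not overlap, and the log2 fold change was 0.54 ± 0.11 (adjusted p = 8.2e-05). Pcdhb20 was between 7.67 and 10.9 CPM in WT + IPTG (median 9.25) and between 11.2 and 13.8 in LacQ140 (median 11.9) at 6 months, a log2 fold change of 0.35 ± 0.064 (adjusted p = 6e-05). At 12 months the ranges were 9.29 to 13.9 (median 12) and 14.4 to 18.6 (median 15.4), with a log2 fold change of 0.41 ± 0.06 (adjusted p = 1.8e-07). The members with every LacQ140 library above every WT + IPTG library were 3 at 6 months, Pcdhb9, Pcdhb13 and Pcdhb20, where 0.561% of all genes did so, and 5 at 12 months, Pcdhb3, Pcdhb9, Pcdhb19, Pcdhb20 and Pcdhb22, where 0.777% did so.

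The other beta genes that rose at both ages were 6, and their fold changes are given first for 6 and then for 12 months. Pcdhb2 had 0.61 ± 0.15 (adjusted p = 0.0036) and 0.90 ± 0.19 (adjusted p = 0.00018), and Pcdhb5 had 0.49 ± 0.09 (adjusted p = 5.7e-05) and 0.42 ± 0.082 (adjusted p = 8.4e-05). Pcdhb12 had 0.46 ± 0.075 (adjusted p = 8.5e-06) and 0.53 ± 0.082 (adjusted p = 7.7e-07), and Pcdhb15 had 0.34 ± 0.1 (adjusted p = 0.02) and 0.33 ± 0.099 (adjusted p = 0.014). Pcdhb16 had 0.41 ± 0.082 (adjusted p = 0.00025) and 0.44 ± 0.13 (adjusted p = 0.013), and Pcdhb21 had 0.51 ± 0.13 (adjusted p = 0.003) and 0.65 ± 0.16 (adjusted p = 0.0022). Of the non-zero values, 91.7% for Pcdhb12, the highest share of any beta gene, and 67.3% for Pcdhb21 were not whole. Pcdhb17 was called at 6 months (0.29, adjusted p = 0.0013) and was under the 20% bound at 12 months (0.20, adjusted p = 0.044). Pcdhb4 was called at 12 months (0.56, adjusted p = 0.00058), with 0.23 and an adjusted p of 0.3 at 6 months. Pcdhb1, the first gene of the cluster, was at 0.332 ± 0.119 CPM in LacQ140 and 0.251 ± 0.128 in WT + IPTG at 6 months (adjusted p = 0.5), the lowest level of any member.

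Pcdhb8 moved the other way, inside a cluster whose other called members rose. It was chosen for its values by library after these had been seen. At 6 months it was at 6.87 ± 1.29 CPM in WT + IPTG (4.64 to 8.36, median 7.11) and 4.73 ± 0.682 in LacQ140 (3.48 to 5.78, median 4.81), a log2 fold change of -0.54 ± 0.13 (adjusted p = 0.0018). At 12 months it was at 11.1 ± 2.35 CPM in WT + IPTG (7.99 to 14.1, median 11.5) and 6.62 ± 2.09 in LacQ140 (4.69 to 10.4, median 5.85), a log2 fold change of -0.75 ± 0.16 (adjusted p = 0.0002). The groups overlapped at both ages, and in 12-month WT mice without IPTG its mean was 8.75 ± 2.03 CPM (n = 9). Of its transcript, 0.866% of the stretches of 100 bases occur in another gene, but 32.3% of its non-zero values were not whole, so part of its counts was shared out too.

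**Figure D4:**
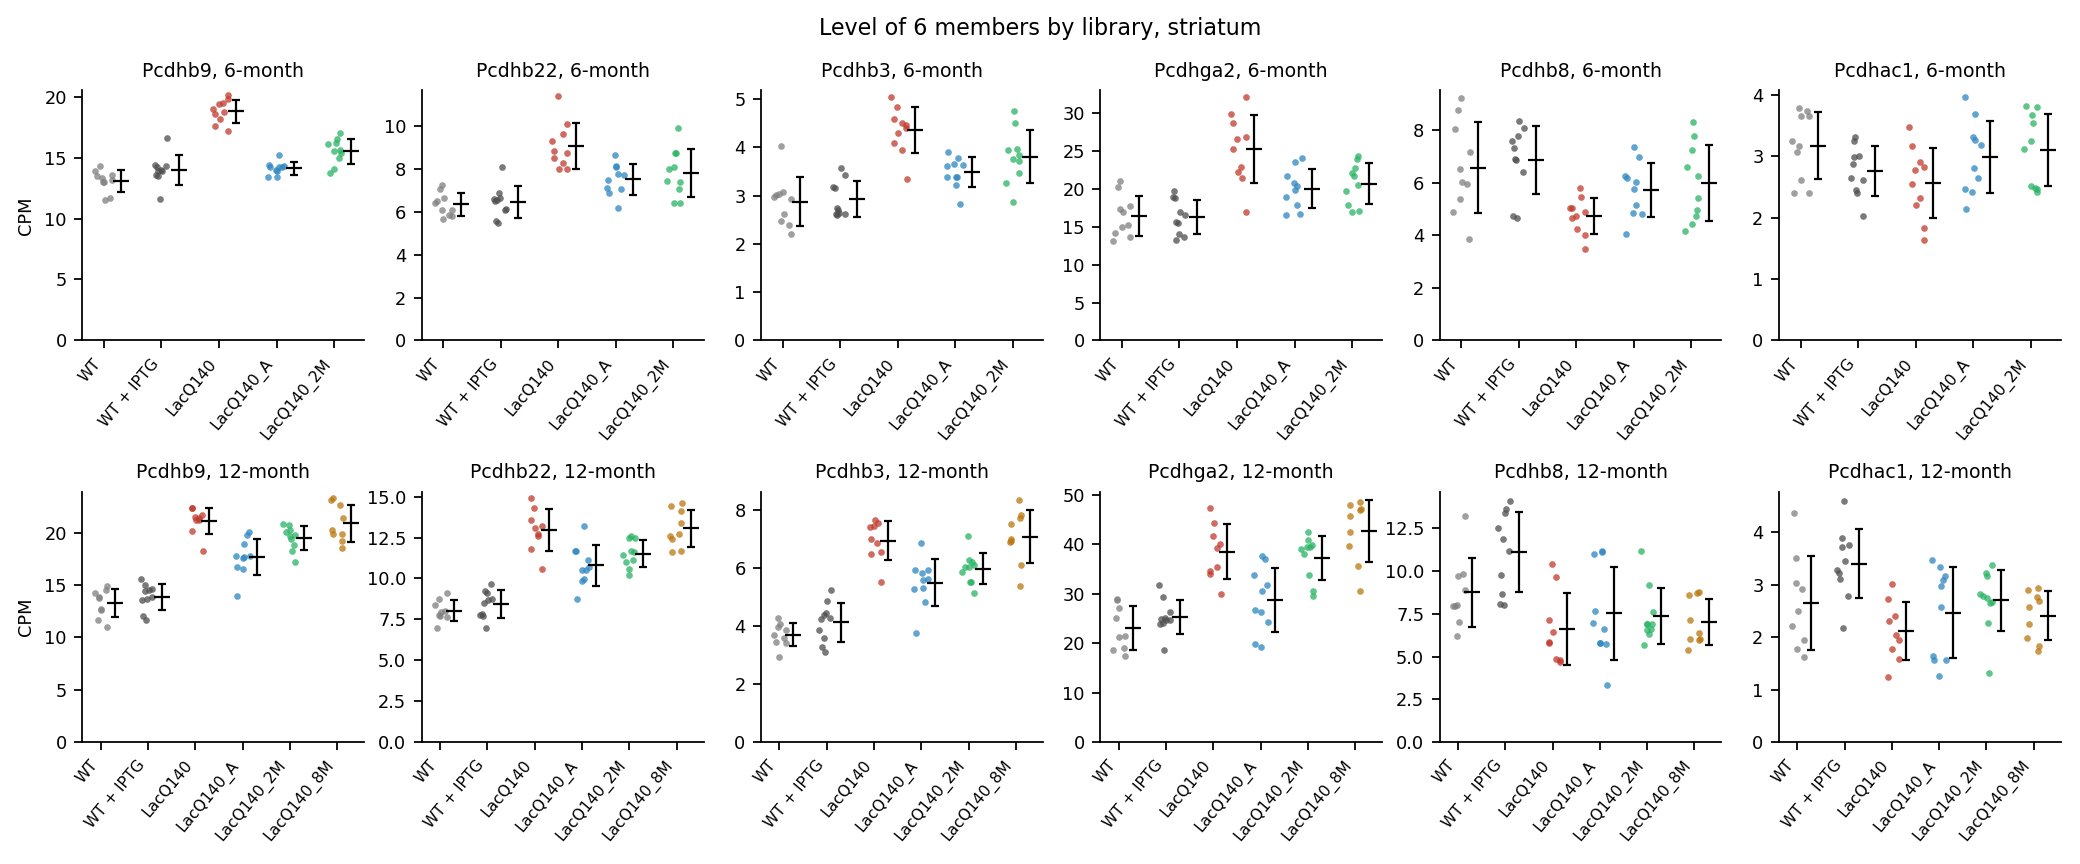
CPM (y axis, from 0) of Pcdhb9, Pcdhb22, Pcdhb3, Pcdhga2, Pcdhb8 and Pcdhac1 in each striatum library by arm (x axis), at 6 months (top) and 12 months (bottom). Points are libraries and black bars are the mean and SD; Pcdhb9 in LacQ140 does not overlap WT + IPTG at either age, while Pcdhb8 is lower in LacQ140 with overlapping groups.

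In the gamma cluster the members that rose lay mainly at its start. Of its 6 first genes, 5 were called higher at 6 months and 4 at 12 months, with median log2 fold changes of 0.48 and 0.38. Of the 12 that follow, before the C-type genes, 3 were called higher at 6 months, none was called higher at 12 months and 1, Pcdhga6, was lower, with medians of 0.07 and -0.19. The place of this division was chosen after the values had been seen. Over the 18 gamma A and B genes, Spearman's rho of position with log2 fold change came to -0.53 (6 months) and -0.56 (12 months), against 0.04 and 0.09 over the 22 beta genes and -0.17 and 0.29 over the 12 alpha genes that are not C-type. In the cortex, where no member was called in this comparison with all arms in the fit, the values were -0.41 and -0.22 for the gamma genes, 0.18 and -0.09 for the beta genes and 0.46 and 0.07 for the alpha genes. These are descriptions across genes that share exons, reads and libraries.

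Pcdhga2, the second gene of the gamma cluster, had the largest fold change of its cluster at both ages. At 6 months it ran from 13.2 to 19.7 CPM in WT + IPTG (median 16.1) and from 16.9 to 32.1 in LacQ140 (median 25.9), a log2 fold change of 0.64 ± 0.092 (adjusted p = 5.7e-07). At 12 months it ran from 18.6 to 31.7 CPM (median 24.8) and from 29.9 to 47.4 (median 39.3), a log2 fold change of 0.60 ± 0.1 (adjusted p = 6.9e-06). The groups overlapped slightly. Pcdhga1, the first gene, rose by 0.51 at 6 months (adjusted p = 0.00081) and by 0.41 at 12 months (adjusted p = 0.022). Pcdhgb1 rose by 0.48 ± 0.11 (adjusted p = 0.001) and 0.54 ± 0.13 (adjusted p = 0.0017), and Pcdhga4 by 0.48 ± 0.085 (adjusted p = 2.8e-05) and 0.34 ± 0.1 (adjusted p = 0.017). The calls of Pcdhga1 and Pcdhga4 at 12 months each depended on single libraries. Pcdhga1 had 0.35 (adjusted p = 0.075) without LacQ140 replicate M2 and 0.34 (adjusted p = 0.061) without WT + IPTG replicate M4, and Pcdhga4 had 0.29 (adjusted p = 0.057) without LacQ140 replicate F5. Pcdhga6, whose libraries were also looked at after its result was known, was at 52.1 ± 7.89 CPM in WT + IPTG and 52.9 ± 8.18 in LacQ140 at 6 months. At 12 months it was at 70 ± 9.39 (52.4 to 82.9) and 53.7 ± 10 CPM (36.9 to 64.2), a log2 fold change of -0.38 ± 0.11 (adjusted p = 0.0091).

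The remaining gamma genes called at 6 months were Pcdhga3 (0.30 ± 0.08, adjusted p = 0.0074), Pcdhga9 (0.31 ± 0.091, adjusted p = 0.014), Pcdhga10 (0.27 ± 0.071, adjusted p = 0.0049) and Pcdhga11 (0.27 ± 0.07, adjusted p = 0.0061), and at 12 months their log2 fold changes were 0.12, 0.21, 0.07 and 0.03, none of them called. Pcdhga10 and Pcdhga11 lay at the 20% bound, which the omission of any of several single libraries put them under, and Pcdhga3 fell to 0.25 (adjusted p = 0.028) without LacQ140 replicate M5. In the beta cluster Pcdhb15 lost its 6-month call without WT + IPTG replicate M3 (0.30, adjusted p = 0.052) or M5 (0.30, adjusted p = 0.05). The other 19 of 23 calls at 6 months and 23 of 25 at 12 months held whichever single library of the compared arms was left out.

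In the alpha cluster 1 gene, Pcdha4, was called at 6 months (10.2 ± 1.02 against 7.76 ± 1.33 CPM, log2 fold change 0.39 ± 0.079, adjusted p = 0.00026). This count of 1 depended on the setting. It was 2 without WT + IPTG replicate F2, which added Pcdha7 (0.41, adjusted p = 0.024). It was also 2 with only the compared arms in the fit, which added Pcdha2 (0.30, adjusted p = 0.039), and with no bound on the fold change, which added Pcdhac2. With WT and WT + IPTG pooled it was 4, with Pcdha2, Pcdha5 and Pcdha7 added. At 12 months 5 alpha genes were higher, Pcdha4 (0.37 ± 0.079, adjusted p = 0.00027), Pcdha5 (0.42 ± 0.1, adjusted p = 0.002), Pcdha9 (0.59 ± 0.14, adjusted p = 0.0016), Pcdha10 (0.44 ± 0.12, adjusted p = 0.0082) and Pcdha11 (0.62 ± 0.15, adjusted p = 0.0011). Pcdha1, the first gene of the cluster, was at 2.48 ± 0.697 CPM in LacQ140 and 2.2 ± 0.522 in WT + IPTG at 6 months (adjusted p = 0.65), and at 2.77 ± 1.16 and 3.06 ± 0.832 CPM at 12 months (adjusted p = 0.71). Of the stretches of 100 bases of Pcdha4, 43.9% also occur in Gm42416, a gene model that runs through the clusters and is not a member. The gene with identifier ENSMUSG00000007440 is called Pcdha11 in the GENCODE annotation and is named Pcdha10 here after its position in RefSeq, so that each alpha gene has a name of its own.

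Of the C-type genes none was called at 6 months. Pcdhgc5, which binds GABA-A receptors at synapses, ran from 78.3 to 122 CPM in WT + IPTG (median 98.1) and from 109 to 131 in LacQ140 (median 123), and its log2 fold change of 0.25 (adjusted p = 0.012) was under the 20% bound. It was past that bound without any one of WT + IPTG replicates F2, F3, F4 and M4 or LacQ140 replicate M2 (0.26 to 0.28). Pcdhac2 had 0.17 (31.4 to 43.3 against 36.3 to 44.8 CPM, adjusted p = 0.043), also under the bound. Pcdhgc4 had 0.24 (93.8 to 185 against 112 to 220.4 CPM, adjusted p = 0.21), Pcdhgc3, which binds the Wnt pathway protein Axin1, had -0.06 (119 to 157 against 113 to 149.9 CPM, adjusted p = 0.66), and Pcdhac1 had -0.10 (2.03 to 3.32 against 1.63 to 3.47 CPM, adjusted p = 0.69). At 12 months Pcdhac1 was lower, at 2.12 ± 0.559 CPM in LacQ140 (1.25 to 3.01, median 2.05) against 3.4 ± 0.66 in WT + IPTG (2.18 to 4.61, median 3.38), a log2 fold change of -0.69 ± 0.17 (adjusted p = 0.0014). The other 4 had log2 fold changes between -0.16 and 0.07 at 12 months, with adjusted p between 0.34 and 1. For Pcdhgc4 the 12-month libraries ran from 186 to 533 CPM in WT + IPTG and from 206 to 425 in LacQ140, and for Pcdhgc5 from 94.8 to 162 and from 95.7 to 162.

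The members called at both ages were 17 higher, 77.3% of those higher at each age, and 1 lower. Of all 33803 genes tested at both ages 1.85% were higher at both, which was 44.1% of those higher at 6 months and 38.7% of those higher at 12 months. The members' share was not tested against these, and the ages share no libraries. They were Pcdha4, 12 beta genes, and Pcdhga1, Pcdhga2, Pcdhgb1 and Pcdhga4 among the higher ones, and Pcdhb8 as the lower one. At neither age were 27 members and 85.5% of all genes called. Of the members these were 8 of 14 in the alpha, 7 of 22 in the beta and 12 of 21 in the gamma cluster.

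IPTG alone moved no member past the threshold in the striatum. WT + IPTG against WT gave 0 called members by edgeR and 0 by DESeq2 at each age, with 0.584% of all genes called at 6 months and 0.218% at 12 months. At an unadjusted p under 0.05 there were 1 member at 6 months and 8 at 12 months. At 6 months 26 of 57 members were above 0 (median -0.01), and at 12 months 48 were (median 0.10), with a median of 0.00 over all genes at each age. The beta sum was 123 ± 9.65 CPM in WT and 124 ± 8.81 in WT + IPTG at 6 months, and 139.5 ± 6.56 (n = 9) and 151 ± 17.2 (n = 10) at 12 months.

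Lowering of mHtt from conception went with lower levels of some beta genes and of Pcdhga2. LacQ140_A mice were compared with LacQ140 mice, and differ from them in IPTG as well. At 6 months 7 members were lower in LacQ140_A and none higher, where 0.584% of all genes were called lower and 1.30% higher. They were Pcdhb3 (log2 fold change -0.32), Pcdhb5 (-0.34), Pcdhb9 (-0.42), Pcdhb13 (-0.35), Pcdhb16 (-0.33), Pcdhb22 (-0.27) and Pcdhga2 (-0.34). The median of all members was -0.12 and that of all genes 0.00. Pcdhb9 in LacQ140_A ran from 13.4 to 15.2 CPM (median 14.2), below all 10 LacQ140 libraries (adjusted p = 5.3e-08). It was the 1 member to do so, as did 0.0391% of all genes. At 12 months 4 members were lower, Pcdhb2 (-0.81 ± 0.18, adjusted p = 0.0071), Pcdhb3 (-0.34), Pcdhb22 (-0.27) and Pcdhga2 (-0.42), and none higher, with 0.348% of all genes called lower and 0.562% higher. With the length slope as a covariate 12 members were lower at 6 months, and with only these 2 arms in the fit 1 was lower at 12 months. Cell type markers moved here too. Of the 6 spiny neuron markers 5 were higher in LacQ140_A at 6 months and 3 at 12 months, with sums of 4319 to 6316 CPM against 3437 to 4249 in LacQ140, and 3528 to 4824 against 2769 to 3461. At 6 months the microglia sums were 229.8 to 275.3 against 194 to 236.8 CPM, with none of 4 markers called. All 3 pituitary markers were higher in LacQ140_A at 6 months, with a median sum of 2.64 CPM, but replicates F1 and M1 were at 115.4 and 85.79 CPM. Their part in the levels of the members was not tested, but with those 2 libraries and WT + IPTG replicate M5, which had 704.4 CPM of choroid plexus markers, left out, 6 members were lower, all of the above but Pcdhb3. This comparison shares its LacQ140 libraries with that against WT + IPTG, so the opposite signs of the 2 are not independent.

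LacQ140_A was also set against WT, where neither arm received IPTG and no LacQ140 library takes part. At 6 months no member was called by edgeR or DESeq2, against 0.910% of all genes, and 19 members had an unadjusted p under 0.05. The median member was at 0.12. At 12 months 12 members were higher and none lower, with 1.25% of all genes called higher and 1.91% lower. Of these, 11 were beta genes, among them Pcdhb9 (17.7 ± 1.74 against 13.3 ± 1.31 CPM, log2 fold change 0.42 ± 0.06, adjusted p = 5.2e-07), Pcdhb22 (0.43, adjusted p = 3.4e-06) and Pcdhb3 (0.57, adjusted p = 4.4e-06), and 1 was Pcdha5 (0.35, adjusted p = 0.04). No gamma gene was called. At 12 months 5 of 6 spiny neuron markers were lower, with sums of 3528 to 4824 CPM in LacQ140_A and 5690 to 6840 in WT, which did not overlap, and their part in the result was not tested. The beta sum in LacQ140_A was 132 ± 6.28 CPM at 6 months, 1.07 times that of WT, and 169 ± 17.9 at 12 months, 1.21 times that of WT. The ratios at the 2 ages were not tested against each other.

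Lowering from 2 months of age went with lower Pcdhb9 and Pcdha5 at 6 months. LacQ140_2M and LacQ140_8M mice were off IPTG at collection, unlike LacQ140 and WT + IPTG. Against LacQ140, LacQ140_2M had 2 lower members at 6 months, Pcdhb9 (15.5 ± 1.02 against 18.8 ± 0.93 CPM, log2 fold change -0.28 ± 0.051, adjusted p = 0.00048) and Pcdha5 (-0.37, adjusted p = 0.026), where 0.553% of all genes were called lower and 0.704% higher. Pcdha5 was not called in LacQ140 against WT + IPTG at that age (0.20, adjusted p = 0.2). Of its stretches of 100 bases, 55.5% occur in another gene. With the length slope as a covariate 6 members were lower. At 12 months no member was called by edgeR or DESeq2, against 0.608% of all genes in either direction, and 6 had an unadjusted p under 0.05. Against WT + IPTG, 7 members were higher in LacQ140_2M at 6 months and none lower, with 0.517% of all genes called higher and 0.553% lower. They were Pcdha4 (0.31), Pcdhb3 (0.38), Pcdhb12 (0.32), Pcdhb19 (0.28), Pcdhb22 (0.28), Pcdhga2 (0.35) and Pcdhga4 (0.38). The count was 4 with the length slope as a covariate, and also 4 without the 3 libraries rich in pituitary or choroid plexus markers. At 12 months 18 were higher and 1, Pcdhb8 (-0.59), was lower, with 3.19% and 3.24% of all genes. Without 5 libraries rich in choroid plexus or cortical markers, 16 were higher and Pcdhb8 did not pass. The spiny neuron marker sums in LacQ140_2M were 4423 to 4999 CPM at 6 months, above all LacQ140 libraries (3437 to 4249), with 4 of 6 markers higher. At 12 months they were 2715 to 4599 CPM, below all WT + IPTG libraries (4731 to 7486), with 5 of 6 lower. Against WT + IPTG the oligodendrocyte sums in LacQ140_2M were lower with overlap. They were 8052 to 9870 against 9626 to 11767 CPM at 6 months, and 7521 to 9595 against 8540 to 11239 at 12 months. At 6 months the astrocyte sums were 996 to 1132 against 1095 to 1393 CPM, and the general neuron sums 2455 to 2663 against 2261 to 2749. The part of these markers in the differences was not tested. The beta sum in LacQ140_2M was 139.6 ± 8.84 CPM at 6 months and 179.6 ± 8.68 at 12 months.

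After lowering from 8 months no member differed from LacQ140 at 12 months by edgeR or DESeq2, where 0.00565% of all genes were called, and 7 members had an unadjusted p under 0.05. Against WT + IPTG, LacQ140_8M had 27 higher members and 2 lower ones, Pcdhb8 (-0.66) and Pcdhac1 (-0.50), with 3.86% of all genes called higher and 4.21% lower. Without the same 5 libraries 23 were higher, and of the lower ones Pcdhac1 did not pass. The largest change was that of Pcdhb2, at 3.01 ± 0.799 CPM (n = 9) against 1.37 ± 0.42 (n = 10), a log2 fold change of 1.13 ± 0.18 (adjusted p = 2.6e-06). Of the spiny neuron markers 5 of 6 were lower than in WT + IPTG, with sums of 3023 to 3820 CPM against 4731 to 7486, and of the oligodendrocyte markers 1 of 4 was, with 7744 to 9339 against 8540 to 11239. Their part in the result was not tested. The beta sum was 196 ± 16 CPM. In order of mean beta sum the 12-month striatum arms were WT (139.5), WT + IPTG (151), LacQ140_A (169), LacQ140_2M (179.6), LacQ140 (187) and LacQ140_8M (196 CPM), and the libraries of each arm overlapped those of its neighbours in that order.

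In the cortex no member was called by edgeR or DESeq2, with all arms in the fit, in the 9 comparisons run, which set LacQ140 against WT + IPTG, WT + IPTG against WT and each lowered arm against LacQ140. The lowered arms were not compared with WT or WT + IPTG in the cortex. With only the compared arms in the edgeR fit, 2 members and 0.313% of all genes were higher in LacQ140 against WT + IPTG, and 16 members and 2.49% of all genes were lower in LacQ140_A against LacQ140, at 12 months. At 6 months LacQ140 against WT + IPTG had 0.881% of all genes called and 1 member with an unadjusted p under 0.05, and the members' median was -0.04. WT + IPTG against WT had 0.609% of all genes and no such member. LacQ140_A and LacQ140_2M against LacQ140 had 0.00834% and 0% of all genes, and 3 and 2 such members. At 12 months the shares of all genes were 0.0899% for LacQ140 against WT + IPTG, 0% for WT + IPTG against WT, 0.0435% for LacQ140_A, 0.0841% for LacQ140_2M and 0% for LacQ140_8M, the last 3 against LacQ140. The members with an unadjusted p under 0.05 were 2, 2, 19, 2 and 2. Pcdhb9 in 6-month cortex ran from 11.5 to 13.8 CPM in WT + IPTG (median 12.6) and from 10.7 to 14.3 in LacQ140 (median 12.9), a log2 fold change of 0.01 ± 0.084 (adjusted p = 1). At 12 months it ran from 10.6 to 15.6 and from 12.7 to 16.6 CPM (0.09 ± 0.091, adjusted p = 0.8). The beta sum was 89 ± 7.43 CPM in WT + IPTG and 85.7 ± 9.3 in LacQ140 at 6 months, and 61.7 ± 6.42 and 63.2 ± 5.84 at 12 months (n = 10 each).

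LacQ140_A against LacQ140 in 12-month cortex had a median of -0.29 over the members, with 6 of 57 above 0 and medians of -0.54 in the gamma, -0.22 in the beta and -0.08 in the alpha cluster. No member passed the adjusted threshold in the fit of all arms, and 16 did when these 2 arms were fitted alone, where 2.49% of all genes did so in the same direction. The median length slope was -0.14 in those LacQ140_A libraries and -0.05 in the LacQ140 libraries. With the slope as a covariate in the fit of all arms, still no member was called. Marker sums differed as well. Those of choroid plexus had medians of 14.03 CPM in LacQ140_A and 568.8 in LacQ140. Cortical excitatory neuron sums were 638.2 ± 156.3 against 786.1 ± 92.23 CPM, and endothelial sums 49.65 ± 13.68 against 63.66 ± 16.44. General neuron sums were 3687 ± 445.5 against 3641 ± 254.4. The part of the slope and of these markers in the difference was not tested.

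The difference between the tissues was tested directly in mice with both tissues, with the mouse as a block. The LacQ140 effect was larger in the striatum than in the cortex for 10 members at 6 months and smaller for none, where 0.524% of all genes were called higher and 0.598% lower. These were Pcdhb2 (difference of log2 fold changes 0.84), Pcdhb3 (0.67), Pcdhb9 (0.41 ± 0.089, adjusted p = 0.0062), Pcdhb12 (0.52), Pcdhb13 (0.46), Pcdhb19 (0.51), Pcdhb22 (0.45), Pcdhga2 (0.71 ± 0.12, adjusted p = 0.00026), Pcdhgb1 (0.53) and Pcdhga10 (0.45). Without the mouse block 5 members were called at 6 months. At 12 months the effect was higher in the striatum for 8 members, where 0.955% of all genes were called, and lower for 1, where 1.85% were. The 8 were Pcdha11 (0.97), Pcdhb3 (0.89 ± 0.15, adjusted p = 2.8e-05), Pcdhb4 (0.93), Pcdhb9 (0.51), Pcdhb12 (0.53), Pcdhb19 (0.56), Pcdhb20 (0.44) and Pcdhb22 (0.62), and the 1 was Pcdhga6 (-0.83 ± 0.25, adjusted p = 0.047). Pcdhb3, Pcdhb9, Pcdhb12, Pcdhb19 and Pcdhb22 passed at both ages. The 12-month cortex libraries had few long transcripts, with median length slopes of -0.05 in LacQ140 and -0.09 in WT + IPTG. The part of this in the 12-month differences was not tested. These differences also hold the change in cortex. There the gamma A and B genes summed to 72.2 ± 17 CPM in LacQ140 and 55.7 ± 13.2 in WT + IPTG at 12 months. In striatum the sums were 534 ± 74 and 542 ± 73.7.

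**Figure D5:**
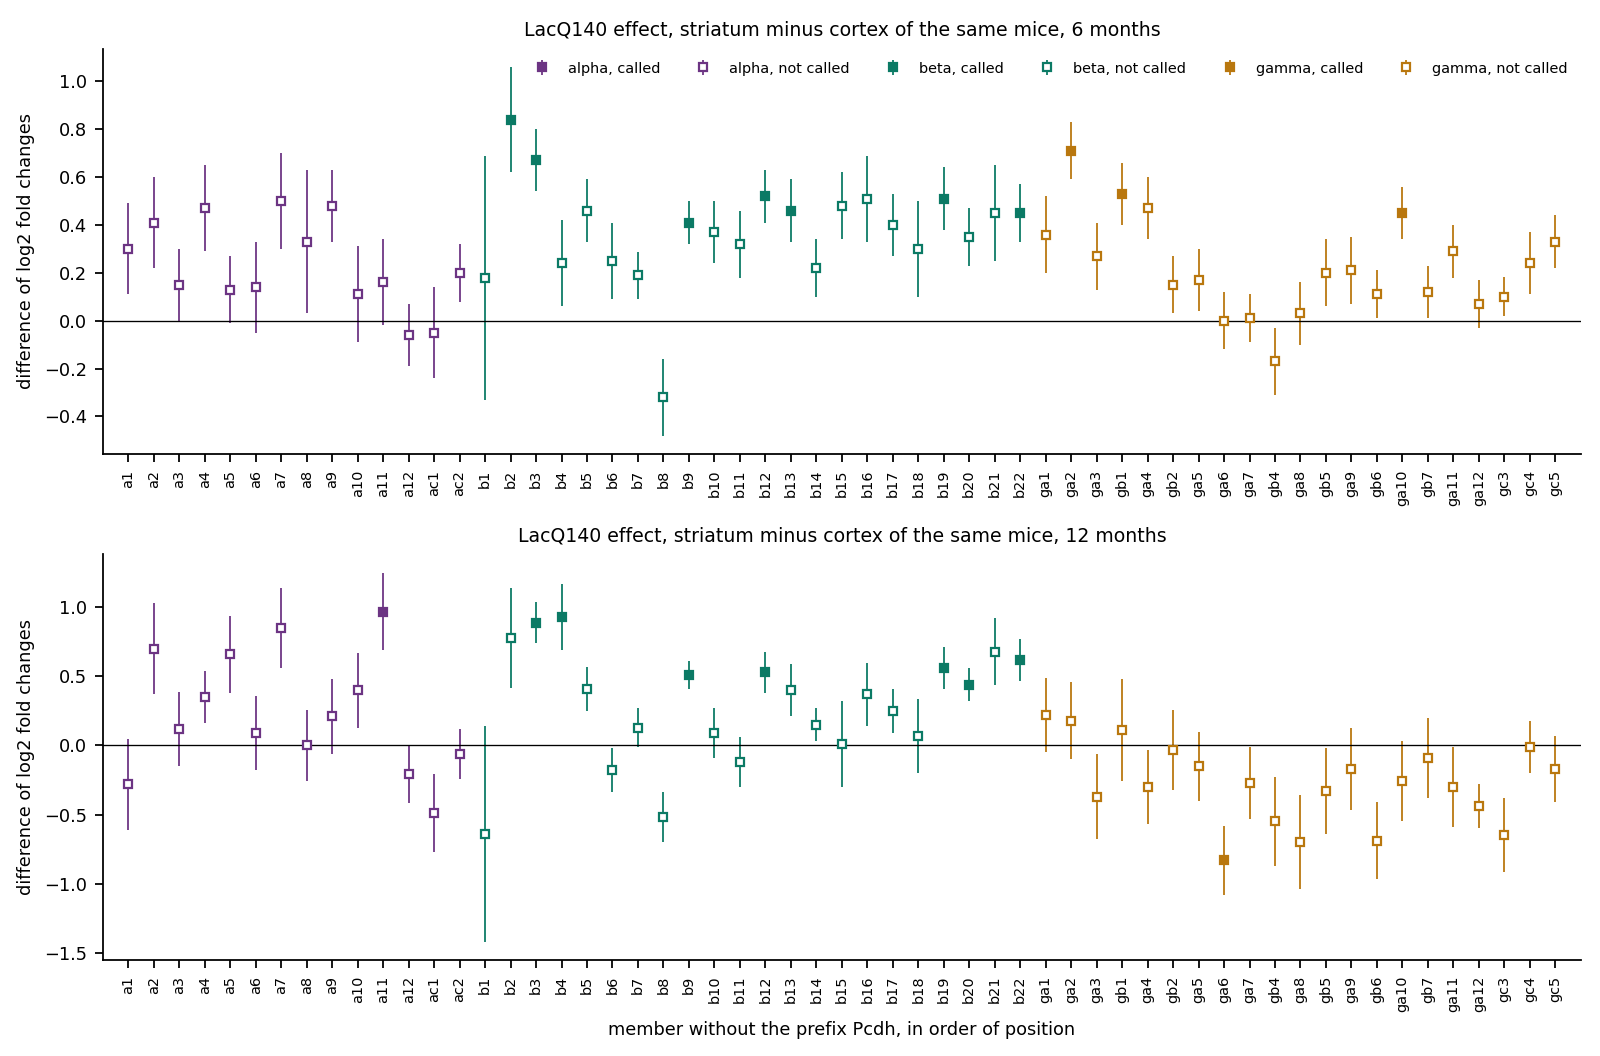
LacQ140 effect (LacQ140 against WT + IPTG, log2) in striatum minus that in cortex of the same mice (y axis) for each member by position (x axis, symbols without the prefix Pcdh), at 6 months (top) and 12 months (bottom); bars are standard errors and filled squares are called members. At 6 months 53 of 57 members lie above 0 and at 12 months 30 do, with most gamma genes below 0. Long transcripts were under-represented in the 12-month cortex libraries.

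In WT and WT + IPTG mice the clusters themselves differed between the tissues. At 6 months 28 members were higher in striatum than in cortex and 12 were lower, with 15.3% and 15.7% of all genes. The alpha cluster had 10 of 14 members lower in striatum and none higher (median -0.46), among them Pcdha11 (-1.15 ± 0.088, adjusted p = 1e-17), Pcdha7 (-1.04) and Pcdha9 (-0.89). The gamma cluster had 15 of 21 higher and none lower (median 0.78), led by Pcdhga6 (1.21 ± 0.058, adjusted p = 8.2e-27). Its C-type genes did not pass, with Pcdhgc3 at 0.05, Pcdhgc4 at -0.05 and Pcdhgc5 at -0.09 (adjusted p between 0.24 and 0.7). The beta cluster had 13 of 22 higher and 2 lower (median 0.37), led by Pcdhb1 (1.69 ± 0.23) and Pcdhb6 (1.66 ± 0.075). At 12 months 51 members were higher in striatum and none lower, with 24.0% and 24.6% of all genes and a median of 1.65, and there the tissues differed in length slope as well, so tissue and the loss of long transcripts cannot be told apart.

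Other genes of the pathway were counted in lists. The shares of all genes called, 3.97% higher and 3.96% lower at 6 months and 4.58% and 4.86% at 12 months, apply here as well. Of 18 genes for the architecture and silencing of the clusters, among them Ctcf, the cohesin genes and Smchd1, 1 was called in LacQ140 against WT + IPTG striatum at each age, a share near that of all genes. It was Wiz, a partner of histone methyltransferases that also binds at CTCF sites (0.30 ± 0.069, adjusted p = 0.0016 at 6 months, and 0.26 ± 0.052, adjusted p = 7.7e-05 at 12 months). The list's medians were -0.00 and 0.03. Of 12 protocadherins outside the clusters, 5 were higher at 6 months, Pcdh8 (0.45), Pcdh10 (0.37), Pcdh11x (0.41), Pcdh19 (0.55) and Pcdh20 (0.44), and 4 at 12 months, Pcdh11x (0.60), Pcdh15 (0.56), Pcdh19 (0.71) and Pcdh20 (1.08 ± 0.14, adjusted p = 1.1e-08). None was lower, and the medians were 0.22 and 0.19. Of 13 intracellular partners and processing enzymes none was called at 6 months. At 12 months Marcks (0.42) was higher, and Ptk2b (-0.28), a kinase that the alpha and gamma proteins inhibit, and the WAVE complex genes Cyfip2 (-0.33), Nckap1 (-0.28) and Abi1 (-0.30) were lower.

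Markers of cell types moved with the same comparison. Of 6 markers of spiny projection neurons, 5 were lower in LacQ140 striatum at each age, and their summed level was 3980 to 6275 CPM in WT + IPTG against 3437 to 4249 in LacQ140 at 6 months, and 4731 to 7486 against 2769 to 3461 at 12 months. None of 4 general neuron markers was called, with sums of 2261 to 2749 against 2358 to 2632 CPM at 6 months and 2606 to 2921 against 2399 to 2762 at 12 months. Lower at 6 and 12 months were 2 and 1 of 4 oligodendrocyte markers (9626 to 11767 against 7451 to 9478 CPM, and 8540 to 11239 against 6613 to 10618), 3 and 1 of 4 microglia markers (228.7 to 296.5 against 194 to 236.8, and 267.6 to 306.3 against 228.9 to 275.6), 1 and 0 of 5 astrocyte markers (1095 to 1393 against 919 to 1097, and 886 to 1128 against 887 to 1069), and 0 and 1 of 3 endothelial markers (112.5 to 172.3 against 115.1 to 150.0, and 134.7 to 180.0 against 118.6 to 165.1). Of 4 cortical excitatory neuron markers 1 was lower at 6 months (3.7 to 84.2 against 4.48 to 69.5 CPM) and 1 higher at 12 months (3.5 to 74.2 against 5.38 to 303.8), and of 4 choroid plexus markers 1 was lower at each age (6.08 to 704 against 7.91 to 69.5, and 5.94 to 403 against 7.03 to 21.4). None of 3 pituitary markers was called, and their sums were under 4 CPM. No marker was at 0 in every library. The part of these shifts in the levels of the clustered protocadherins was not tested.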

How the data were processed

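Striatum and cortex RNA was sequenced by the authors (100-base paired-end reads), and the deposited tables, 1 per age, hold expected counts per gene. The deposited expected counts were not normalized, and 26.8% of the non-zero values were not whole (tolerance 0.001). The genome build was GRCm38 per the submitters' notes; the aligner, quantifier and annotation are not given in the sources used here. Groups came from the labels. The members and gene lists were chosen with earlier results of these data known.

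Rounded counts entered edgeR 4.0.16 in R 4.3.3 (TMM scaling, quasi-likelihood F test, genes with at least 1 count in a tissue and age, all arms of that tissue and age in 1 fit). A gene was called at a Benjamini-Hochberg adjusted p under 0.05 over all genes and at least a 1.2-fold difference. SEs were taken from the F statistic. CPM used TMM-scaled library sizes. Tissues were compared in the 107 mice with both tissues, with the mouse as a block. Symbols, lengths and positions were from GENCODE M21, and shared stretches were counted in its transcripts. DESeq2 1.42.0, other scalings, filters, covariates and leaving out each library were tried as alternatives. The procedure was tested on simulated data. Libraries of a group came from separate mice, and of 963 pairs of libraries within groups none differed by as little as sampling noise (lowest chi-square per degree of freedom 6.15).

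Statistics are given for Htt, members called in LacQ140 against WT + IPTG striatum, C-type genes, the first and last gene of each cluster, and the most and least abundant member per length. Values by library are given for the 4 called members with the smallest p at each age and the C-type genes; other members described by library were chosen after their values had been seen. Sums over a cluster were given no test.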

Additional observations from a re-analysis of the deposited data

Results flagged for a closer look

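In 9 of 110 groups of libraries examined, the highest or lowest library stood apart from the rest by Dixon's criterion, which chance meets in about 1 of 20 groups. In 6-month striatum, WT + IPTG replicate F2 had the highest alpha sum (100.4 CPM, next 89.3) and the highest Pcdhb22 (8.12 CPM, next 6.87), and LacQ140 replicate F3 the highest Pcdhb20 (13.8 CPM, next 12.3). In 12-month striatum, WT + IPTG replicate M4 had the lowest alpha sum (82.4 CPM, next 96.3), the lowest Pcdhac2 (29 CPM, next 37.7) and the highest Pcdhgc4 (533 CPM, next 338), and LacQ140_8M replicate F5 the lowest alpha sum (95.2 CPM, next 113). In 12-month cortex, LacQ140 replicate M3 had the lowest gamma sum (192 CPM) and LacQ140_8M replicate F5 the highest alpha sum (69.2 CPM, next 55.9).

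The LacQ140 effect differed between striatum and cortex of the same mice, by the test of the difference itself, for 10 members at 6 months and 9 at 12 months. At 6 months the differences of log2 fold changes, all higher in striatum, were 0.51 for Pcdhb19, 0.52 for Pcdhb12, 0.67 for Pcdhb3, 0.46 for Pcdhb13, 0.41 for Pcdhb9, 0.84 for Pcdhb2, 0.45 for Pcdhb22, 0.45 for Pcdhga10, 0.53 for Pcdhgb1 and 0.71 for Pcdhga2. At 12 months they were 0.56 for Pcdhb19, 0.53 for Pcdhb12, 0.89 for Pcdhb3, 0.93 for Pcdhb4, 0.44 for Pcdhb20, 0.51 for Pcdhb9, 0.62 for Pcdhb22, 0.97 for Pcdha11 and -0.83 for Pcdhga6. The 12-month values involve the cortex libraries in which long transcripts were under-represented.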

How the results depend on the processing

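Of 297 counts of called members recomputed under another setting, over 27 comparisons, all but 9 stayed within 1.5 times. With the length slope as a covariate, the count in the striatum became 12 for LacQ140_A and 6 for LacQ140_2M against LacQ140 at 6 months, 4 for LacQ140_2M against WT + IPTG at 6 months, and 1 for LacQ140_2M against LacQ140 at 12 months. With only the groups compared in the fit, it became 1 for LacQ140_A against LacQ140 in 12-month striatum, and in 12-month cortex 2 for LacQ140 against WT + IPTG and 16 for LacQ140_A against LacQ140. For the tissue difference of the LacQ140 effect at 6 months it became 5 without the mouse block. In an alternative chosen after seeing the data, 3 libraries at 6 months and 5 at 12 months were left out because their pituitary, choroid plexus or cortical excitatory neuron markers exceeded 10 times the median of striatum at that age; LacQ140_2M against WT + IPTG at 6 months then had 4, and LacQ140 against WT + IPTG had 21 at 6 months and 25 at 12 months. The cause of these changes was not tested. With 1 library left out, LacQ140 against WT + IPTG gave 20 to 25 called members in 6-month striatum, 25 to 29 in 12-month striatum, and 0 to 0 in the cortex at each age. No log2 fold change of a called member changed sign in these settings; those of Pcdhgc4 and Pcdhgc5 at 12 months, near 0 and not called, did in 6 of them. Same-numbered libraries of different arms did not deviate together (mean correlations between -0.11 and 0.05), and with the replicate block the counts in the striatum were 23 at 6 months and 25 at 12 months. DESeq2 gave 22 and 25. The counting of reads in shared exons, set by the authors' quantifier, limits single alpha and gamma genes, and the length bias limits the 12-month cortex.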

Other observations

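Protein-coding genes near the clusters that are no members were counted as well. There were 32 within 500 kb or inside the span of the clusters, where Gm42416, Gm37013, Gm37388, Slc25a2 and Taf7 lie. This rule was chosen after the members' results had been seen. None of them was called higher in LacQ140 against WT + IPTG striatum at either age by edgeR. Of all genes, 3.97% were called higher at 6 months and 4.58% at 12 months. The difference from that share was not tested. Called lower were 3.96% of all genes at 6 months and 4.86% at 12 months. Lower at 6 months were 3 of 31 tested, Hbegf, a growth factor of the EGF family (20.7 ± 2.68 against 25.1 ± 3.36 CPM, log2 fold change -0.28 ± 0.095, adjusted p = 0.041 by edgeR), E230025N22Rik (-0.41, adjusted p = 0.0017) and Arap3 (-0.34, adjusted p = 0.0019). At 12 months 2 of 32 were called lower, Hbegf (17.2 ± 3.04 against 32.7 ± 9.26 CPM, -0.93 ± 0.12, adjusted p = 5.8e-09) and E230025N22Rik (-0.30, adjusted p = 0.018). Some neighbours had an adjusted p under 0.05 by edgeR but a difference under the fold change bound. Higher in this way at 6 months were Pcdh1 (0.21, adjusted p = 0.045) and Gnpda1 (0.14, adjusted p = 0.035). At 12 months these were Ik (0.18, adjusted p = 0.017), Hars (0.14, adjusted p = 0.015) and Fchsd1 (0.25, adjusted p = 0.027). Arap3 was lower in this way at 12 months (-0.26, adjusted p = 0.013). The median over the neighbours was -0.03 at each age. In the cortex none was called at either age.

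Pcdhgb8, the gamma gene left out as a polymorphic pseudogene, was at 3.2 ± 0.756 CPM in WT + IPTG and 2.87 ± 0.436 in LacQ140 striatum at 6 months, a log2 fold change of -0.16 (adjusted p = 0.43). The 12-month means were 4.03 ± 0.438 in WT + IPTG and 3.73 ± 0.744 CPM in LacQ140 (-0.11, adjusted p = 0.53).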
